A study of Mus musculus with 8 samples.

Results

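The estrogen-related receptors are a family of 3 orphan nuclear receptors encoded by Esrra, Esrrb and Esrrg. Each gene was found by its symbol in the gene column of the deposited count table and represented by a single transcript, which gave 3 of the 22869 genes in that table. RNA-seq of polyadenylated RNA was compared between inguinal white adipose tissue, the subcutaneous fat of the mouse groin, from 4 Fabp4-Ebf2 transgenic and 4 wild-type samples. In the transgenic samples Ebf2, a transcription factor gene of brown and beige fat, was placed under Fabp4 regulatory sequence, which is active in adipocytes and also in some other cells such as macrophages. Samples of both genotypes came from mice of mixed background aged about 6 weeks, kept on normal chow at room temperature, and lymph nodes were removed from the fat. Whether every library stands for its own animal is not said in the labels, and the p-values then cover only the spread among these libraries. The Fabp4-Ebf2 libraries held 18.4 to 24.7 M reads and the wild-type libraries 16.9 to 24.1 M reads over the genes of the table.

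Estrogen-related receptors are relatives of the estrogen receptors but do not bind estrogen. They bind DNA at the sequence TNAAGGTCA or its core AAGGTCA, where N is any base, and switch on genes of fatty acid oxidation, the tricarboxylic acid cycle and oxidative phosphorylation. They depend on protein partners, above all the coactivators encoded by Ppargc1a and Ppargc1b, and in brown fat, heart and muscle they maintain a high capacity for mitochondrial respiration.

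The 3 genes lie on different chromosomes, and their start regions are given here because the results turn on how strongly each gene was read out. In the RefSeq annotation of GRCm38.p6, Esrrg spans chr1:187608510-188214885, Esrrb spans chr12:86361117-86521628 and Esrra spans chr19:6910977-6922048. The windows hold 250 bases before and 50 bases after an annotated start, read on the gene's strand, and the capitals mark the 50 bases after the start. For Esrrg they are the upstream start at chr1:187608756-187609055 on the plus strand, where the counted transcript begins, and a downstream start at chr1:187997577-187997876 on the plus strand. For Esrra the window is chr19:6921759-6922058 on the minus strand.
Esrrg, upstream start: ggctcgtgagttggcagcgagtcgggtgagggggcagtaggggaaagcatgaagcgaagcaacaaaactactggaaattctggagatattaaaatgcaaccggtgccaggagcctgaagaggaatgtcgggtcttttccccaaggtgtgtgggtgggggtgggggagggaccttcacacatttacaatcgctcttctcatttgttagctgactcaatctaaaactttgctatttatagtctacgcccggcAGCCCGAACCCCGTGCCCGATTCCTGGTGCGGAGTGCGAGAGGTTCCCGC
Esrrg, downstream start: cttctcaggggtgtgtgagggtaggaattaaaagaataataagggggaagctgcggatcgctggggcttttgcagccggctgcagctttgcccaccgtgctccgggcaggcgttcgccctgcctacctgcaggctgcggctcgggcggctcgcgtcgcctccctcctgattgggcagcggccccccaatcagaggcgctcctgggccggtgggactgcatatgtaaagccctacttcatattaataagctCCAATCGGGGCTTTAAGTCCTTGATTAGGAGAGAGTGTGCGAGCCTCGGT
Esrra: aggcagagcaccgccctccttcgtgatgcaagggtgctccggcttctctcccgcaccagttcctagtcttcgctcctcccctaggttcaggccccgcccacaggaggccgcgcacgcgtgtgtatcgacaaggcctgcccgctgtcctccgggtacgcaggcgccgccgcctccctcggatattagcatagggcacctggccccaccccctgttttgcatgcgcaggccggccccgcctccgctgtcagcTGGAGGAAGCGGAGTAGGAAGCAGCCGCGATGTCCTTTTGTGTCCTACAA
The windows have a GC content of 54.0% at the upstream Esrrg start, 60.0% at the downstream Esrrg start and 66.0% at Esrra, against a median of 52.7% over all 32851 promoters of the RefSeq table. Neither TNAAGGTCA nor AAGGTCA was found on either strand in any promoter window of the 3 genes. The same windows held TNAAGGTCA in 1.28% and AAGGTCA in 4.72% of all promoters, where every TNAAGGTCA is also an AAGGTCA. These are matches of letters in 300 bases only.

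Esrrg, a member found mainly in tissues of high energy demand, was 8.79-fold higher in Fabp4-Ebf2 fat. It had 17.4, 11.7, 24.4 and 11.9 CPM in Fabp4-Ebf2 libraries 1 to 4, against 2.52, 1.51, 1.79 and 1.61 CPM in wild-type libraries 1 to 4, where CPM is the read count relative to the TMM-normalised library size. Every Fabp4-Ebf2 library lay above every wild-type library, with replicate 3 the highest of its genotype. The means were 16.3 ± 5.97 CPM in Fabp4-Ebf2 fat and 1.86 ± 0.457 CPM in wild-type fat (SD, n = 4 each), from 278 to 422 reads per Fabp4-Ebf2 library and 27 to 48 reads per wild-type library. The log2 fold change was 3.14, with a standard error (SE) equal to 0.29 (adjusted p = 0.00182 in the quasi-likelihood test of edgeR, adjusted by Benjamini-Hochberg over 15002 genes). With each library left out in turn it ran from 2.88 to 3.31, and every such fit passed the adjusted p threshold of 0.05. In whole tissue, more RNA per cell and more cells of a type that makes it cannot be told apart.

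Esrra, the broadly expressed member that sets basal oxidative gene expression in many tissues, was 1.45-fold higher. Its levels were 74.2, 76.6, 108 and 88.5 CPM in Fabp4-Ebf2 libraries 1 to 4, against 61.5, 60.4, 54.3 and 63.2 CPM in wild-type libraries 1 to 4. The groups did not overlap, and replicate 3 was again the highest Fabp4-Ebf2 library. The means were 86.8 ± 15.4 CPM in Fabp4-Ebf2 fat and 59.9 ± 3.87 CPM in wild-type fat (SD, n = 4 each). The log2 fold change was 0.54 (SE 0.12), just past the threshold (edgeR adjusted p = 0.0473). The call was fragile: it held without Fabp4-Ebf2 replicate 2 (edgeR adjusted p = 0.0294) and was lost without any other single library of either genotype (0.0579 to 0.119), while the log2 fold change stayed between 0.42 and 0.60. DESeq2 gave an adjusted p of 0.00321, limma-voom 0.0534, and the authors' deposited table lists an FDR of 0.00833 for this gene.

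Esrrb, known from embryonic stem cells, placenta and inner ear, was close to the limit of detection. It had 11, 18, 16 and 6 reads in Fabp4-Ebf2 libraries 1 to 4, against 5, 4, 6 and 5 reads in wild-type libraries 1 to 4, where 3 reads are 0.116 to 0.178 CPM. The lowest Fabp4-Ebf2 library overlapped the wild-type libraries, and the other 3 lay above them. The means were 0.611 ± 0.295 CPM in Fabp4-Ebf2 fat and 0.246 ± 0.0624 CPM in wild-type fat (SD, n = 4 each). Esrrb did not reach the low-count filter, so it was fitted without that filter over 19282 genes. There its log2 fold change was 1.30 (SE 0.46) and did not pass (edgeR adjusted p = 0.204), and a two-sided exact permutation test on log2(CPM + 0.5) gave p = 0.114.

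Thus 2 of the 3 members rose, both of the members that passed the filter, beside 3.42% of all 15002 tested genes called in either direction and 2.8% called higher (0.62% were called lower). Both were also among the genes whose 4 Fabp4-Ebf2 libraries all lay above the 4 wild-type libraries, as were 7.35% of the genes tested. Ebf2 itself had 499, 231, 575 and 447 CPM in Fabp4-Ebf2 libraries 1 to 4, against 37.0, 14.9, 30.3 and 29.4 CPM in wild-type libraries 1 to 4, with transgene and endogenous reads counted together. Replicates 2 and 3, the lowest and highest Fabp4-Ebf2 libraries for Ebf2, were also the lowest and highest of that genotype for Esrrg, with replicate 4 close to replicate 2. The plot of the 3 genes by library shows these values.

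**Figure D1:**
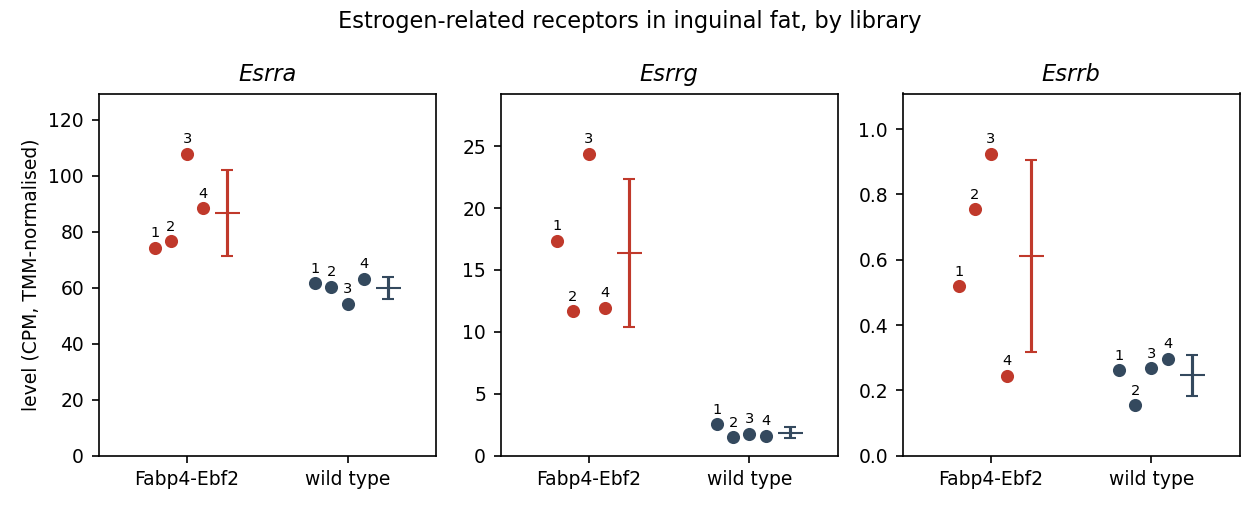
Levels of Esrra, Esrrg and Esrrb in each library, in TMM-normalised CPM on linear axes that start at 0, with replicate numbers above the points and the mean ± SD of 4 libraries beside them. Fabp4-Ebf2 and wild-type points are separate for Esrra and Esrrg and overlap for Esrrb, whose axis ends near 1 CPM.

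Markers of the cells in the tissue moved with genotype as well, and some bear on how the members' values are read. All 10 adipocyte markers were detected, with none at 0. Their summed level was 25876 to 29005 CPM in Fabp4-Ebf2 libraries and 32978 to 42948 CPM in wild-type libraries, with no overlap. Cfd weighed heavily in that sum, with a mean of 6864 CPM in Fabp4-Ebf2 fat and 14009 CPM in wild-type fat. The markers did not all move together: 7 had log2 fold changes below 0 and 3, namely Plin1, Lipe and Pparg, above 0. Singly, 2 of the 10 were lower without overlap (beside 4.07% of all genes tested). Of these markers 1, Retn, fell (beside 0.62% of all genes called lower), and at an unadjusted p under 0.05 in edgeR 0 were higher and 5, namely Adipoq, Cidec, Cfd, Retn and Lep, were lower, beside 10.2% of all genes tested higher and 7.27% lower at that p. The summed level of 20 skeletal muscle markers was 87.0 to 483 CPM in Fabp4-Ebf2 libraries, highest in replicate 2, and 523 to 1466 CPM in wild-type libraries, highest in replicate 1, again with no overlap and none at 0. Of the muscle markers 19 were tested, all 19 had log2 fold changes below 0 (median -2.01) and 1, Casq1, fell (beside 0.62% of all genes). At an unadjusted p under 0.05 in edgeR, 0 were higher and 16 lower (beside 10.2% and 7.27% of all genes). Skeletal muscle also expresses Esrra and Esrrg, and how much of their RNA came from muscle was not tested. Within wild type, the library with the highest muscle sum, replicate 1, also had the highest Esrrg. That library was also the highest wild-type library for Ucp1 (98.5 CPM), Ppara (47.6 CPM) and Ebf2 (37.0 CPM). Esrra was highest in wild type replicate 4, at 63.2 CPM, against 61.5 CPM in replicate 1. Within Fabp4-Ebf2 the order of muscle sum and Esrrg was not kept. The library with the highest muscle sum, replicate 2, had the lowest Esrrg at 11.7 CPM, and the one with the lowest muscle sum, replicate 4, had 11.9 CPM. When the mean of the muscle markers was added as a covariate, Esrrg had a log2 fold change of 3.38 with an SE of 0.48 (edgeR adjusted p = 0.103) and Esrra had 0.43 (SE 0.21, edgeR adjusted p = 0.730), in a fit that called 1 gene in all and 0 of the target genes described further on. The summed muscle level did not overlap between genotypes, so that fit can separate muscle from genotype only weakly. Without the covariate the SE was 0.29 for Esrrg and 0.12 for Esrra. Without wild type replicate 1 and Fabp4-Ebf2 replicate 2 together, the log2 fold change of Esrrg was 3.44 (edgeR adjusted p = 0.00192) and that of Esrra 0.60 (edgeR adjusted p = 0.0608). The summed level of 6 smooth muscle and mural markers overlapped, at 276 to 323 CPM in Fabp4-Ebf2 libraries and 282 to 358 CPM in wild-type libraries.

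The family's balance shifted with genotype. The log2 ratio of Esrrg to Esrra within a library, on log2(CPM + 0.5), was -2.06, -2.67, -2.12 and -2.84 in Fabp4-Ebf2 libraries 1 to 4, against -4.36, -4.92, -4.58 and -4.92 in wild-type libraries 1 to 4. No Fabp4-Ebf2 ratio was as low as any wild-type ratio. The difference of the means was 2.27 (two-sided exact permutation test over 70 arrangements, p = 0.0286, the smallest possible), so the pair of receptors moved by different amounts.

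Levels can be compared between genes only per length, here as CPM per kilobase of the counted transcript. On that scale Esrra was the main member in both genotypes, with 38.7 ± 6.85 CPM per kb in Fabp4-Ebf2 and 26.7 ± 1.73 CPM per kb in wild type. Esrrg had 3.38 ± 1.24 CPM per kb in Fabp4-Ebf2 and 0.384 ± 0.0946 CPM per kb in wild type, and Esrrb had 0.146 ± 0.0703 CPM per kb in Fabp4-Ebf2 and 0.0586 ± 0.0149 CPM per kb in wild type. The order Esrra, Esrrg, Esrrb therefore held in both genotypes, with neighbours in that order apart by more than their SDs. Esrra exceeded Esrrg 12.2 ± 3.38-fold in Fabp4-Ebf2 fat and 72.3 ± 16.2-fold in wild-type fat. Esrrg made up 7.91% ± 1.98 of the family's summed level in Fabp4-Ebf2 and 1.42% ± 0.338 in wild type (SD, n = 4 each). The summed level was 42.2 ± 7.81 CPM per kb in Fabp4-Ebf2 and 27.1 ± 1.74 CPM per kb in wild type, most of it Esrra in every library.

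The transcripts listed for Esrrg could not be separated. The counted transcript, from the upstream start, and the transcript from the downstream start begin 389 kb apart but share 4568 exon bases, with 265 bases private to the upstream transcript and 725 to the downstream one. Their read counts differed by 11, 4, 11 and 11 reads in Fabp4-Ebf2 libraries 1 to 4 and by 1, 0, 0 and 1 reads in wild-type libraries 1 to 4. The counts of the 2 transcripts were thus nearly equal, but such net differences do not give the reads private to each. Which start was used was not resolved. Likewise the 2 Esrrb transcripts held 71 and 69 reads in all.

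Neighbouring genes give the local setting of Esrra, which lies in a dense stretch of chromosome 19. Trmt112, a cofactor of RNA and protein methyltransferases whose annotated span overlaps Esrra, had 15.6 ± 1.57 CPM in Fabp4-Ebf2 fat and 16.4 ± 2.13 CPM in wild-type fat (SD, n = 4 each; log2 fold change -0.08, SE 0.12, edgeR adjusted p = 0.777). Prdx5, a peroxiredoxin found partly in mitochondria, rose with a log2 fold change of 0.49 and an SE of 0.11 (edgeR adjusted p = 0.0478), nearly the same size and p as Esrra. Prdx5 had 211 ± 30.4 CPM in Fabp4-Ebf2 fat and 151 ± 7.15 CPM in wild-type fat (SD, n = 4 each), and its call held in 1 of the 8 fits with a library left out. Catsperz, a sperm calcium channel subunit listed as 1700019N12Rik, rose by 1.55 (SE 0.31, edgeR adjusted p = 0.0284) on 100 reads over the 8 libraries, and its call held in 2 of the 8 fits with a library left out. Kcnk4, a potassium channel gene, had a log2 fold change of 1.12 and an SE of 0.44 (edgeR adjusted p = 0.227) on 134 reads. Whether strand was used in counting is not stated in the labels or the file, and reads of Esrra and Trmt112 in the overlap may be shared.

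Among the nuclear receptors tested, Esrrg had the largest log2 fold change and Esrra the eighth largest. Of 49 nuclear receptor genes 37 were tested, of which 4 rose (10.8%, beside 2.8% of all genes called higher), 0 fell and 33 did not pass. The median log2 fold change of the 37 was 0.14, beside -0.01 over all genes tested. At an unadjusted p under 0.05 in edgeR, 8 were higher and 1, Nr1h3, lower (beside 10.2% and 7.27% of all genes tested), and DESeq2 and edgeR's exact test called 0 lower. The 4 were Esrrg, Ppara, Nr4a3 and Esrra, in order of log2 fold change. In 7 of the 37 the Fabp4-Ebf2 libraries all lay above the wild-type libraries, and in 0 they all lay below, beside 7.35% and 4.07% of all genes tested. The count of 4 was 6 with DESeq2 and with edgeR's exact test, which added Rarb and Nr6a1, and 2 with limma-voom; over all genes those tests called 5.13%, 4.85% and 2.48% higher. It was 2 without Fabp4-Ebf2 replicate 1 or 4 or wild type replicate 1, 3 or 4, and Esrrg and Ppara were called in every fit with a library left out.

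Ppara, the receptor for fatty acids that switches on their oxidation, shares many target genes with the family. It had 223, 114, 323 and 161 CPM in Fabp4-Ebf2 libraries 1 to 4, against 47.6, 18.8, 37.5 and 40.3 CPM in wild-type libraries 1 to 4. As for Esrrg, the groups did not overlap and replicate 3 was the highest. The log2 fold change was 2.51 (SE 0.36, edgeR adjusted p = 0.00981). Nr4a3, a receptor induced by adrenergic signals, had 5.30 ± 1.73 CPM in Fabp4-Ebf2 fat and 2.51 ± 0.292 CPM in wild-type fat (SD, n = 4 each; log2 fold change 1.07, SE 0.24, edgeR adjusted p = 0.0464), and its call held in 1 of the 8 fits with a library left out.

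The estrogen receptors, after which the family is named, gave no call. Esr1 had 35.8 ± 6.83 CPM in Fabp4-Ebf2 fat and 33.1 ± 16.5 CPM in wild-type fat (SD, n = 4 each; log2 fold change 0.12, SE 0.34, edgeR adjusted p = 0.881). Esr2 did not reach the low-count filter. Gper1, a membrane receptor that responds to estrogen and is listed as Gpr30, had a log2 fold change of -0.18 and an SE of 0.22 (edgeR adjusted p = 0.700).

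**Figure D2:**
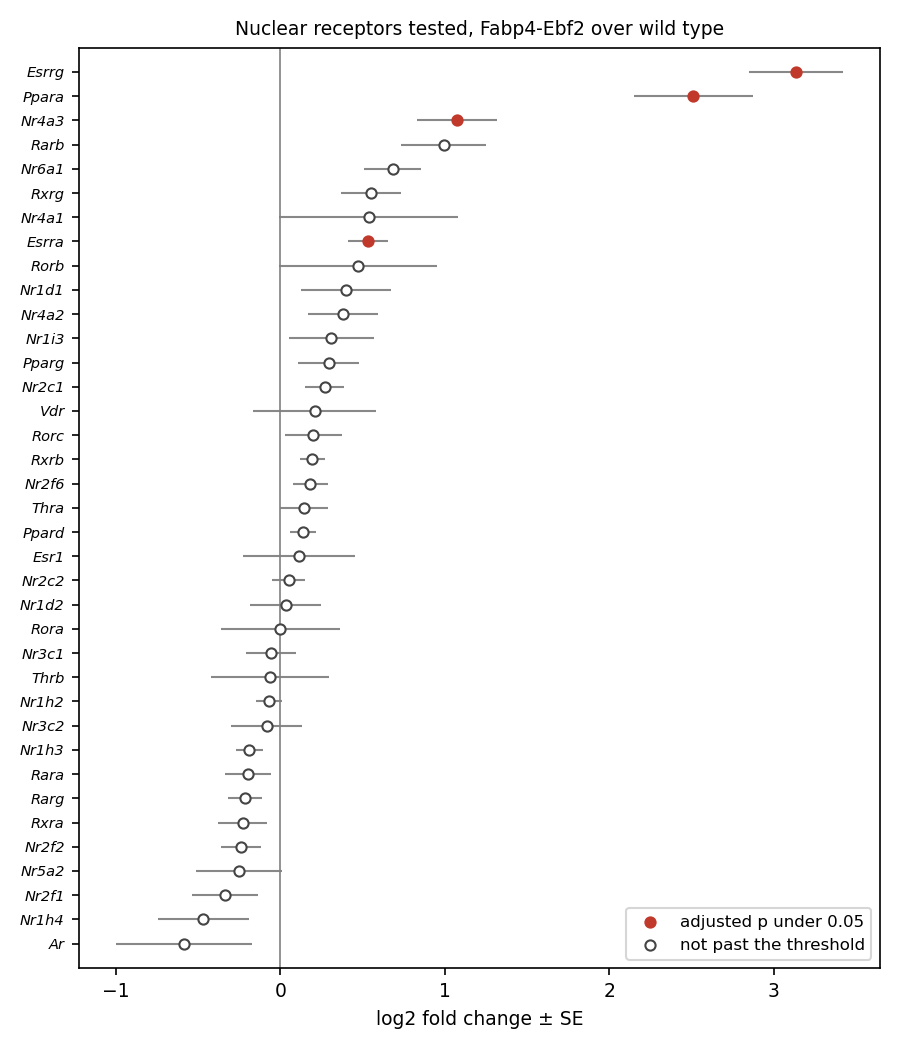
Log2 fold change (Fabp4-Ebf2 over wild type) ± SE of the 37 nuclear receptors tested, 4 libraries per genotype, ordered from high to low. Filled points mark the 4 genes with an adjusted p under 0.05 by edgeR's quasi-likelihood test, of which Esrrg, at 3.14, is the uppermost and Esrra, at 0.54, is the eighth.

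Per length, Esrra ranked 7 of 49 nuclear receptors in Fabp4-Ebf2 fat and 9 in wild-type fat. Its neighbours in Fabp4-Ebf2 were Rxra (39.6 ± 5.03 CPM per kb) and Thra (34.5 ± 2.52), and in wild type Rxrb (29.0 ± 2.45) and Nr1d2 (20.5 ± 6.03), all of which overlapped it within the SDs. Esrrg ranked 24 in Fabp4-Ebf2, between Nr2c1 (5.18 ± 0.583) and Rarb (1.92 ± 0.699), which both overlapped it within the SDs. It ranked 36 in wild type, between Nr4a3 (0.439 ± 0.0510), which overlapped it within the SDs, and Rorb (0.0686 ± 0.0319). Esrrb ranked 37 in Fabp4-Ebf2 and 38 in wild type. Pparg, the adipocyte master regulator, had the highest mean in both genotypes, with 122.6 ± 11.0 CPM per kb in Fabp4-Ebf2 and 99.99 ± 27.2 CPM per kb in wild type. Nr1d1, a receptor of the circadian clock, came next with 100.2 ± 33.6 CPM per kb in Fabp4-Ebf2 and 75.9 ± 17.2 CPM per kb in wild type, and overlapped Pparg within the SDs.

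Genes of the proteins through which the receptors act had smaller differences than Esrrg. Of 22 listed coregulators 20 were tested, of which 1 rose (5.0%, beside 2.8% of all genes called higher), 0 fell and 19 did not pass. Their log2 fold changes ran from -0.09 to 1.37 with a median of 0.13, and at an unadjusted p under 0.05 in edgeR 4 were higher and 0 lower (beside 10.2% and 7.27% of all genes tested). Nr0b1 and Nr0b2, repressors of other nuclear receptors, had too few reads to be tested.

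Ppargc1b, a strong coactivator of the family, was the gene that rose. It had 34.2, 24.1, 48.3 and 26.3 CPM in Fabp4-Ebf2 libraries 1 to 4, against 13.8, 7.87, 14.6 and 15.2 CPM in wild-type libraries 1 to 4. The groups did not overlap, and the log2 fold change was 1.37 (SE 0.26, edgeR adjusted p = 0.0250). The call was lost without Fabp4-Ebf2 replicate 1 or 3 or wild type replicate 1, 3 or 4, at edgeR adjusted p of 0.0503 to 0.0678, with log2 fold changes of 1.14 to 1.46 in those fits. Ppargc1a, the coactivator induced by cold and adrenergic signals, had 44.4, 20.2, 41.5 and 26.3 CPM in Fabp4-Ebf2 libraries 1 to 4, against 26.7, 7.75, 11.8 and 13.1 CPM in wild-type libraries 1 to 4. Wild type replicate 1 lay above 2 Fabp4-Ebf2 libraries, and the log2 fold change of 1.16 (SE 0.38) did not pass (edgeR adjusted p = 0.142). Without that library it was 1.61 and passed (edgeR adjusted p = 0.0450), and the authors' deposited table lists an FDR of 0.00113 for Ppargc1a.

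Other coactivators showed the same order of means without a call. Gadd45g, a partner of the family in brown fat, had 83.6, 33.3, 70.1 and 69.6 CPM in Fabp4-Ebf2 libraries 1 to 4, against 22.6, 28.5, 39.3 and 22.6 CPM in wild-type libraries 1 to 4 (log2 fold change 1.18, SE 0.28, edgeR adjusted p = 0.0530). Replicate 2 was the single Fabp4-Ebf2 library within the wild-type range, and without it the log2 fold change was 1.39 (edgeR adjusted p = 0.00692). Perm1, a muscle regulator that works with Ppargc1a and the receptors and is listed as 2310042D19Rik, had 11.0, 9.68, 14.3 and 5.56 CPM in Fabp4-Ebf2 libraries 1 to 4, against 5.20, 6.47, 5.14 and 5.47 CPM in wild-type libraries 1 to 4. Here replicate 4 was the Fabp4-Ebf2 library within the wild-type range (log2 fold change 0.86, SE 0.25, edgeR adjusted p = 0.111), and without it the log2 fold change was 1.06 (edgeR adjusted p = 0.0299). DESeq2 and edgeR's exact test each called 4 coregulators higher, namely Ppargc1a, Ppargc1b, Gadd45g and Perm1. Without Fabp4-Ebf2 replicate 1 or 3 or wild type replicate 3 or 4, edgeR's quasi-likelihood test called 0, and without Fabp4-Ebf2 replicate 2 or 4 it called 2.

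The general coactivators and corepressors had smaller differences. Pprc1, the third gene of the Ppargc1 family, had a log2 fold change of -0.07 and an SE of 0.08 (edgeR adjusted p = 0.700). Nrip1, a corepressor of oxidative genes in fat, had 0.21 (SE 0.28, edgeR adjusted p = 0.718). The steroid receptor coactivators Ncoa1, Ncoa2 and Ncoa3 had log2 fold changes of 0.16, 0.15 and 0.02, and the corepressor Ncor1 had 0.14. The deacetylase gene Sirt1, which acts on Ppargc1a protein, had 0.11.

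Factors of mitochondrial biogenesis gave 1 call among 9 tested, a rise (11.1%, beside 2.8% of all genes called higher). Their median log2 fold change was 0.04. At an unadjusted p under 0.05 in edgeR, 3 of them were higher and 0 lower (beside 10.2% and 7.27% of all genes tested). Gabpa, the DNA-binding subunit of nuclear respiratory factor GABP, rose with a log2 fold change of 0.42 and an SE of 0.09 (edgeR adjusted p = 0.0334), with 90.0 ± 7.86 CPM in Fabp4-Ebf2 fat and 67.2 ± 4.88 CPM in wild-type fat (SD, n = 4 each). That call was lost without Fabp4-Ebf2 replicate 1, 3 or 4 or wild type replicate 1, 3 or 4, at edgeR adjusted p of 0.0743 to 0.0848. Nrf1, the other nuclear respiratory factor, had a log2 fold change of -0.11 and an SE of 0.08 (edgeR adjusted p = 0.518). Tfam, the mitochondrial DNA packaging and transcription factor, had 53.5 ± 3.12 CPM in Fabp4-Ebf2 fat and 51.9 ± 3.81 CPM in wild-type fat (SD, n = 4 each; log2 fold change 0.04, edgeR adjusted p = 0.799). Polrmt, the mitochondrial RNA polymerase, had 0.32 (SE 0.10, edgeR adjusted p = 0.115) and Tfb1m, a mitochondrial ribosomal RNA methyltransferase, 0.43 (SE 0.18, edgeR adjusted p = 0.270), both without overlap between the groups.

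Genes described as targets of the receptors mostly rose. Of 33 tested, 27 rose (81.8%, beside 2.8% of all genes called higher), 0 fell and 6 did not pass, and the median log2 fold change was 1.02, beside -0.01 over all genes tested. At an unadjusted p under 0.05 in edgeR, 28 were higher and 1, Ckmt2, lower (beside 10.2% and 7.27% of all genes tested). In the same 27 the Fabp4-Ebf2 libraries all lay above the wild-type libraries, beside 7.35% of all genes tested. The list is made of mitochondrial and fatty acid genes that other factors also control, and it was chosen with results of these samples known, so its count is not independent evidence on the receptors. The count of targets that rose was 12 without wild type replicate 3 or without wild type replicate 4 and 15 without Fabp4-Ebf2 replicate 1, and with the other libraries left out it was 21 to 28. Without Fabp4-Ebf2 replicate 2, which gave the 28, Ckmt2 was also called, as lower (log2 fold change -2.94, edgeR adjusted p = 0.0495).

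The 4 targets with the largest log2 fold changes were Fabp3, Ucp1, Cpt1b and Pdk4. Fabp3, the fatty acid binding protein of heart and muscle, had 19.2, 7.92, 38.5 and 13.5 CPM in Fabp4-Ebf2 libraries 1 to 4, against 0.788, 0.387, 0.268 and 0.178 CPM in wild-type libraries 1 to 4 (log2 fold change 5.58, SE 0.60, edgeR adjusted p = 0.00316). Cpt1b, the muscle and brown fat enzyme of mitochondrial fatty acid entry, had 440, 226, 602 and 344 CPM in Fabp4-Ebf2 libraries 1 to 4, against 43.2, 15.8, 15.7 and 17.7 CPM in wild-type libraries 1 to 4 (log2 fold change 4.13, SE 0.43, edgeR adjusted p = 0.00282). Wild type replicate 1 stood above its group for both genes without reaching any Fabp4-Ebf2 library. Pdk4, the kinase that shuts pyruvate out of the tricarboxylic acid cycle and a standard reporter of receptor activity, had 1236 ± 592 CPM in Fabp4-Ebf2 fat and 101 ± 40.1 CPM in wild-type fat (SD, n = 4 each; log2 fold change 3.61, SE 0.42, edgeR adjusted p = 0.00497). Ucp1, the uncoupling protein of thermogenic fat, rose by 5.03 (SE 0.91, edgeR adjusted p = 0.0213). Its call was lost without Fabp4-Ebf2 replicate 1 or wild type replicate 3 or 4.

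Beta-oxidation and tricarboxylic acid cycle genes rose by smaller amounts. Hadhb, a subunit of the trifunctional protein of beta-oxidation, had a log2 fold change of 1.75 (SE 0.25), and Slc25a20, the carnitine carrier, had 1.47 (SE 0.19). Idh3a and Suclg1, which encode subunits of isocitrate dehydrogenase and succinyl-CoA ligase, had 1.48 (SE 0.24) and 1.42 (SE 0.26). Ldhb, the lactate dehydrogenase subunit of oxidative tissues, had 1.74 (SE 0.18). These 5 genes passed at edgeR adjusted p of 0.00282 to 0.0210, and among them Idh3a lost its call without wild type replicate 3 or 4 and Suclg1 without those or Fabp4-Ebf2 replicate 1. A further 17 genes that rose, among them subunits of complexes I to V of oxidative phosphorylation, had log2 fold changes of 0.66 to 1.41.

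The 6 targets that did not pass were of different kinds. Acsl1, a fatty acid activating enzyme, had a log2 fold change of 0.14, Slc25a4, a nucleotide carrier of heart and muscle, 0.24, and Mfn2, a mitochondrial fusion gene, 0.60 (edgeR adjusted p = 0.799, 0.321 and 0.117). The angiogenic factor gene Vegfa had -0.20 and the hexokinase gene Hk2 0.26 (edgeR adjusted p = 0.650 and 0.596). Ckmt2, the mitochondrial creatine kinase of striated muscle, had 0.325 ± 0.278 CPM in Fabp4-Ebf2 fat and 1.51 ± 1.00 CPM in wild-type fat (SD, n = 4 each; log2 fold change -2.17, SE 0.66, edgeR adjusted p = 0.119). Ckmt2 thus ran against the list, and DESeq2 called it lower, as it did 2.24% of all genes.

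**Figure D3:**
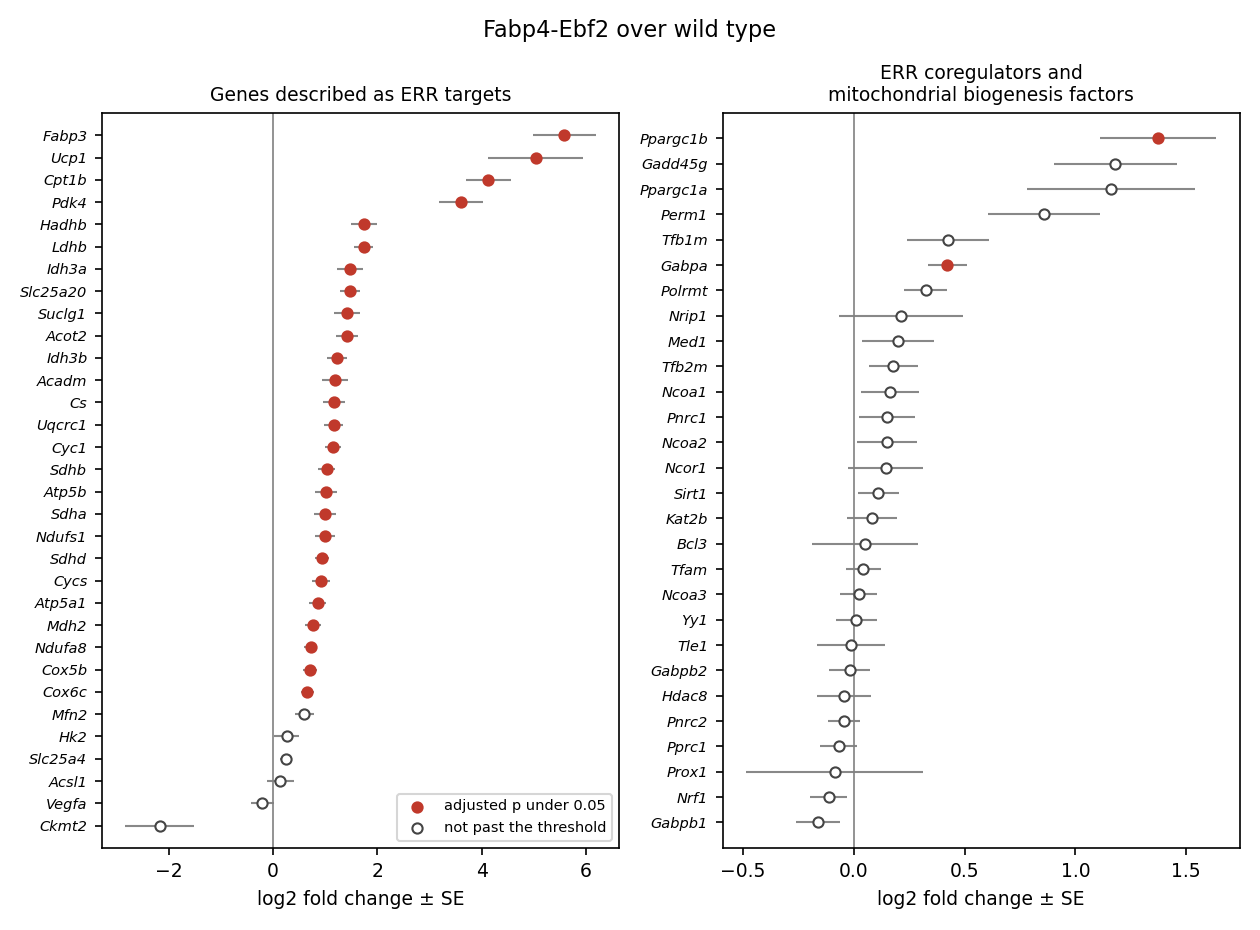
Log2 fold change (Fabp4-Ebf2 over wild type) ± SE, 4 libraries per genotype, of 32 of the 33 genes described as targets (left) and of tested coregulators and mitochondrial biogenesis factors (right), on separate axes. Filled points have an adjusted p under 0.05 by edgeR's quasi-likelihood test: 26 of the targets plotted, all to the right of 0, and Ppargc1b and Gabpa among the partners.

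Promoter windows of the targets were searched for the receptors' sequence. Of the 33 targets 26 had an entry in the RefSeq promoter table. The full TNAAGGTCA was found in 1 of the 26 (3.85%, beside 1.43% of all 27025 genes), and AAGGTCA in 2 of the 26 (7.69%, beside 5.38% of all genes). Among 18 coregulators with an entry, Perm1 held AAGGTCA. The matched stretches are shown on the strand that carries the match, at chr9:50603800-50603823 (plus strand) for Sdhd, a succinate dehydrogenase subunit, chr3:153944876-153944893 (plus strand) for Acadm, the medium-chain acyl-CoA dehydrogenase, and chr4:156215715-156215741 (minus strand) for Perm1, all in GRCm38.p6. Capitals mark the match, which starts 37 bases after the gene's start in Sdhd, 249 bases before it in Acadm and 202 bases before it in Perm1.
Sdhd: agggcTCAAGGTCActctacaacc
Acadm: ccggagcccgAAGGTCAc
Perm1: ggcattagctAAGGTCAcaccggattc
Sdhd had 308, 287, 417 and 289 CPM in Fabp4-Ebf2 libraries 1 to 4, against 185, 155, 170 and 166 CPM in wild-type libraries 1 to 4, a log2 fold change of 0.94 and an SE of 0.14 (edgeR adjusted p = 0.00971). Acadm had 807 ± 275 CPM in Fabp4-Ebf2 fat and 355 ± 74.3 CPM in wild-type fat (SD, n = 4 each; log2 fold change 1.18, SE 0.24, edgeR adjusted p = 0.0326), a call lost in 6 of the 8 fits with a library left out.

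Genes with the most similar profile were found by the root mean square difference of log2 CPM over the 8 libraries, each gene centred on its own mean, among 15001 genes. For Esrrg the 5 nearest were Phospho1 (0.244), a phosphatase gene of mineralising and thermogenic cells, Gnao1 (0.259), a G protein subunit gene, Bmp8b (0.269), a secreted factor of brown fat, Cidea (0.287), a lipid droplet protein of brown fat, and Gyk (0.304), the glycerol kinase gene. Phospho1 had 139, 102, 196 and 97.4 CPM in Fabp4-Ebf2 libraries 1 to 4, against 30.9, 20.1, 16.4 and 16.8 CPM in wild-type libraries 1 to 4. Replicates 1 and 3 were the highest Fabp4-Ebf2 libraries and replicate 1 the highest wild-type library for Phospho1, as for Esrrg. For Esrra the 5 nearest were Akr1b10 (0.0785), an aldo-keto reductase gene, Ndufs6 (0.0808) and Ndufa13 (0.0837), which encode complex I subunits, and Mrpl2 (0.0866) and Ptcd3 (0.0877), which encode proteins of the mitochondrial ribosome. Ndufs6 had 45.3, 44.6, 70.7 and 52.9 CPM in Fabp4-Ebf2 libraries 1 to 4, against 33.9, 33.2, 33.6 and 36.2 CPM in wild-type libraries 1 to 4, with replicates 3 and 4 the highest of the first group, as for Esrra. The distances are descriptions of 8 libraries that differ by genotype. Their log2 CPM had a prior count of 2 added, which weighs most on low counts. Bmp8b was close to the limit of detection, with 0.671 to 1.96 CPM in Fabp4-Ebf2 and 0 to 0.105 CPM in wild-type libraries. Its fitted log2 fold change was 4.24 (SE 0.59), against 3.14 for Esrrg. The colour map by library sets the receptors beside their partners and targets, with replicates 1 and 3 the deepest red of the Fabp4-Ebf2 libraries for Esrrg, Ppara, Fabp3, Cpt1b and Pdk4.

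**Figure D4:**
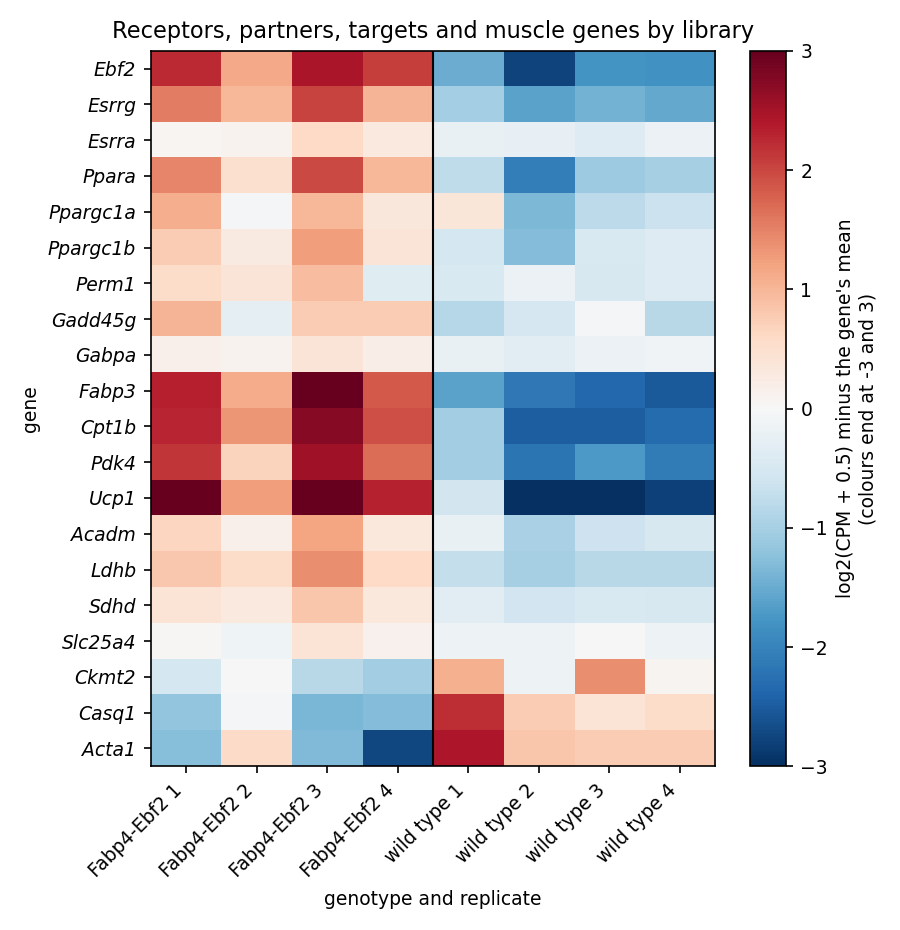
Log2(CPM + 0.5) minus the gene's mean over the 8 libraries for the receptors, their partners, target genes and muscle genes, with colours that end at -3 and 3. Fabp4-Ebf2 libraries are on the left of the black line and wild-type libraries on the right. Ebf2, Esrrg, Ppara and the large targets are red in every Fabp4-Ebf2 library, palest in replicate 2, while Esrra and Gabpa are pale throughout and Casq1 and Ckmt2 run the other way.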

How the data were processed

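RNA-seq libraries of polyadenylated RNA, made with the Illumina TruSeq kit per the labels' protocols, were analysed from 4 Fabp4-Ebf2 and 4 wild-type samples. The deposited read counts of 28644 RefSeq transcripts were made by the authors against mm9 and analysed by them with edgeR (per the submitters' processing notes). Which aligner and counter were used, and whether strand was used, is not given in the sources used here. The authors' log2 fold change and FDR, an adjusted p-value, were copied from the deposited table as its headers name them. A further 8 per-sample columns of deposited log2 values were not used.

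Each gene was represented by the transcript the authors marked as best (21967 genes) or by the one with most reads (902 genes). No pair of libraries agreed within sampling noise, so none was counted as a repeat. Genes passing filterByExpr (15002) were tested for genotype alone by the quasi-likelihood F test (glmQLFit, glmQLFTest) of edgeR 4.0.16 under R 4.3.3, on TMM factors between 0.941 and 1.07. Benjamini-Hochberg adjustment at 0.05 called 420 genes higher and 93 lower. SE is the log2 fold change over the square root of F. The biological coefficient of variation was 18.7%, so spread between libraries rather than depth limited all but the lowest genes, and limits given as 3 reads cover counting error only. Esrrb failed filterByExpr, so its fits were run without that filter, a choice made after seeing the data. Simulated counts with known changes were used to test the fits.

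Lengths were those of GENCODE M21 transcripts, and promoters, gene positions and neighbours (within 5 kb) came from RefSeq on GRCm38.p6, which is not the authors' build. The members and lists were chosen with earlier results of these data known. Named were all members and tested coregulators, biogenesis factors, up to 10 targets and nuclear receptors past the threshold by size, the estrogen receptors, the 5 nearest profiles and neighbours; the 6 targets that did not pass, Acadm, Sdhd, the nuclear receptors next to a member in rank and Phospho1's and Ndufs6's values were chosen after values were seen. Alternatives were DESeq2 1.42.0, limma-voom (limma 3.58.1), edgeR's exact test, other normalisations and filters, a replicate block, muscle markers as a covariate, another transcript choice, other pseudocounts and leaving out libraries. Figures were drawn with matplotlib 3.10.9. Some results for single genes are not given here, though the counts over lists include them.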

Additional observations from a re-analysis of the deposited data

Results flagged for a closer look

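In 9 of 102 groups of 4 libraries (51 genes in each genotype) a single library stood apart from the other 3 by most of the group's range (Dixon's criterion); chance gives about 1 in 20, here 5.1. None was a level of Esrra, Esrrb or Esrrg. Wild type replicate 1 had 98.5 CPM of Ucp1, against 9.26 to 20.3 in the other wild-type libraries, and 43.2 CPM of Cpt1b, against 15.7 to 17.7. Wild type replicate 2 was low, with 176 CPM of Mfn2 (254 to 270 in the others) and 1506 CPM of Acsl1 (2628 to 2716). Wild type replicate 3 had 223 CPM of Slc25a4 (204 to 205), and wild type replicate 4 had 0.714 CPM of Kcnk4 (0.426 to 0.473). Fabp4-Ebf2 replicate 3 was high, with 417 CPM of Sdhd (287 to 308 in the other Fabp4-Ebf2 libraries), 46.0 CPM of Esr1 (31.8 to 33.3) and 17.6 CPM of Tfb1m (9.85 to 10.9).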

How the results depend on the processing

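The rise of Esrrg kept its direction in every alternative and its call in all but the muscle covariate fit (log2 fold change 3.38, edgeR adjusted p = 0.103), with 2.88 to 3.31 when single libraries were left out. Esrra kept its direction, with 0.42 to 0.60 on leaving out single libraries, but lost its call with limma-voom (0.53), the replicate block (0.52), the muscle covariate (0.43) and without wild type replicate 1 and Fabp4-Ebf2 replicate 2 together (0.60). Esrrb ran from 1.05 to 1.58 on leaving out single libraries, was 2.21 with the muscle covariate and passed in none of its alternatives; the mean CPM filter of at least 1 gave no value for it. The Esrrg to Esrra difference was 2.15 to 2.41 on leaving out single libraries. Under the replicate block (a sign-flip permutation, exact p = 0.125, the smallest that 4 pairs allow) it was 2.27. The value added before taking logs moved this difference further: it was 2.51 with 0.1 CPM and 1.69 with 2 CPM in place of 0.5 CPM. Nuclear receptors called were 2 with limma-voom and 0 with the muscle covariate (2 to 5 on leaving out single libraries). Coregulators called were 4 with DESeq2, 4 with edgeR's exact test, 2 without the low-count filter, 2 with the replicate block, 0 with the muscle covariate and 3 without both libraries (0 to 2 singly). Targets called were 0 with the muscle covariate (12 to 29 singly, the 29 being 28 higher and Ckmt2 lower), and biogenesis factors 0 with it and 0 without both libraries (0 to 2 singly). Over all genes the count of 513 was 1200 with DESeq2, 1004 with edgeR's exact test and 1 with the muscle covariate, and 116 to 918 on leaving out single libraries. The causes of these shifts were not tested.

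Among 48 other named genes, 770 of 908 values under alternatives kept direction and side of the threshold, 105 lost and 24 gained the call, and 9 reversed, all uncalled and near 0. With the muscle covariate these were Nrip1 (-0.013), Vegfa (0.075) and Acsl1 (-0.0014), and with library totals only Tfam (-0.0066). On leaving out single libraries Nrip1 ran from -0.020 to 0.36, Acsl1 from -0.035 to 0.28, Esr1 from -0.16 to 0.42 and Tfam from -0.00029 to 0.079. Same-numbered libraries had residual correlations of -0.13, 0.33, 0.14 and 0.06, and differently numbered ones of -0.33 to 0.18. So few and weak correlations cannot decide whether the numbers pair the samples. The block called 598 genes, beside 513 without it. Among the members depth limits Esrrb most, and the wild-type level of Esrrg also rests on few reads, 27 to 48 per library.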
